A study of Mus musculus with 8 samples.

Results

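Oligodendrocyte progenitor cells (OPC) and newly formed oligodendrocytes (NFO) were compared with each other inside every library of a single-cell RNA-seq study of mouse prefrontal cortex (PFC) and striatum. The cells were chosen by the deposited cell-type annotation, which names 2778 OPC and 460 NFO among 23687 annotated cells, so that 3238 cells entered the comparison. PFC held 1337 OPC and 295 NFO, and striatum held 1441 OPC and 165 NFO. The 8 libraries were 2 WT and 2 Setd1a+/- libraries of each tissue, and each library pooled tissue of 2 male C57BL/6N mice whose age is labelled as 8 to 10 weeks, although the study's methods give an older age. Setd1a+/- mice were heterozygous for a frameshift deletion in exon 15 of Setd1a, an H3K4 methyltransferase gene, which had been made by CRISPR-Cas9 injection into BDF1 zygotes, while their WT littermates carried no engineered allele. The labels name no treatment in any group, and the striatal libraries are labelled NAc (nucleus accumbens). OPC and NFO of 1 library come from the same pooled mice and the same droplet run and were therefore compared as pairs. The types had been named from clusters of these same cells, so a gene called different between them describes how a difference recurred over libraries and is no independent test that the types differ.

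OPC are the progenitors of the adult brain that respond to platelet-derived growth factor, can divide and give rise to oligodendrocytes. A progenitor that leaves the cell cycle passes through a short premyelinating stage, the NFO, in which it extends branched processes and either wraps axons or dies. Mature oligodendrocytes keep up the compact myelin sheath, a membrane rich in cholesterol and galactolipids that holds the products of Mbp and Mobp. The comparison asks which genes separate progenitors from cells that have just left the progenitor state, and how constant that step was across tissue and genotype.

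A library held 114 to 485 OPC and 22 to 102 NFO, and their summed UMIs (unique molecular identifiers, counted transcripts) ran from 162197 to 788556 in OPC and from 43581 to 336038 in NFO. The median UMIs per cell were 1351 to 1919 in OPC and 1828 to 3970.5 in NFO, and the NFO were the deeper cells in all 8 libraries. Levels are given as CPM, the UMIs of a gene per 1000000 UMIs of that type in that library, and serve to compare 1 gene between types, not genes with each other. The authors named the types by known marker genes, so sums of lineage markers describe the labels and do not check them. In the deposited types 6 OPC markers summed to 4519 to 9455 CPM in OPC and 699 to 1512 CPM in NFO, and 8 NFO markers to 1227 to 1521 CPM and 6678 to 9552 CPM. Markers of mature oligodendrocytes (9 genes) summed to 30.8 to 626 CPM in OPC and 800 to 2625 CPM in NFO. Of the markers of other cell types, 7 microglial genes summed to 51.0 to 136 CPM in OPC and 22.9 to 339 CPM in NFO, against 20098 CPM or more in microglia of the same libraries. For 7 astrocyte genes the sums were 849 to 1215 CPM in OPC and 45.9 to 214 CPM in NFO, lower in NFO in all 8 libraries, as the sum of the OPC markers was, and the part of astrocyte RNA in the OPC values was not tested. For 6 endothelial genes the sums were 117 to 203 CPM and 68.8 to 467 CPM, for 4 mural genes 6.17 to 100 CPM and 0 to 196 CPM, and for 9 neuron genes 267 to 580 CPM and 98.3 to 783 CPM. The 4 red blood cell genes ranged from 36.5 to 5018 CPM in OPC and from 10.2 to 7312 CPM in NFO, both highest in the PFC WT replicate 1 library. Setd1a itself was too low to be tested, and its counts were not used as a check of genotype. Its 3′ tags lie outside the deletion and cannot show which allele a UMI came from. Libraries shared 3 cell barcodes in all, at most 2 between any pair.

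Of 4563 genes tested, 685 (15.0%) were higher in NFO and 831 (18.2%) were higher in OPC, called with edgeR's quasi-likelihood test at a Benjamini-Hochberg adjusted p under 0.05 and a fold above 1.5. The step from OPC to NFO thus moved 33.2% of the genes tested past that mark in either direction. For 661 genes, 14.5% of those tested, the ranges of the 8 OPC values and the 8 NFO values did not overlap. The median log2 fold change of all genes, written here and below as NFO minus OPC, was -0.0012. Scaling by library size alone shifted this median by -0.12 and the split to 545 higher in NFO and 1012 higher in OPC, 35.0% in place of 45.2% of the calls, so changes smaller than that shift carry no direction.

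**Figure D1:**
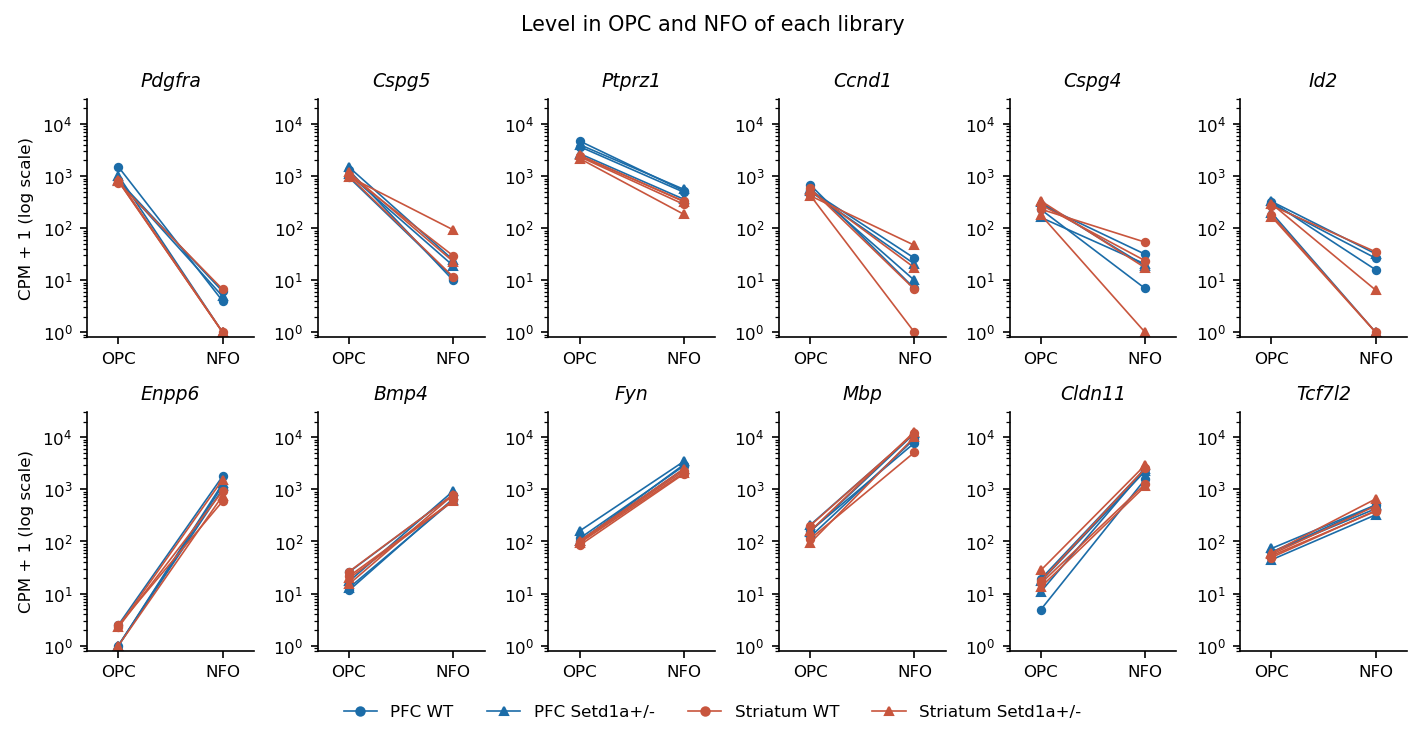
Level of 12 genes in OPC and NFO of each library, as CPM plus 1 on a log axis. Each line joins the OPC and the NFO sum of 1 library, with colour for tissue and symbol for genotype. Lines of all 8 libraries fall for the genes of the upper row and rise for those of the lower row.

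Progenitor genes fell together, with Pdgfra at the front. Of 32 genes on a list of OPC identity genes and growth factor receptors 23 were tested. Of these 19 were higher in OPC and 2 in NFO, beside 18.2% and 15.0% of all genes. Their median log2 fold change was -2.28. The list holds markers by which progenitors are named, so these counts describe the labels and are no test. Pdgfra (chr5:75152292-75198215, plus strand, GRCm38), which encodes the receptor for the platelet-derived growth factor that drives progenitor division, had its lowest, median and highest library at 744, 819 and 1507 CPM in OPC and at 0, 1.49 and 5.68 CPM in NFO. All NFO together held 4 UMIs of it against 4328 in OPC, and the log2 fold change was -8.19 ± 0.21 (8 pairs). Here and below, ± beside a log2 change or difference is its size divided by the square root of the test's F statistic. It is not a fitted standard error. Where a type held few UMIs, as NFO did of Pdgfra, it can be narrower than the counting error. The ranges lay far apart, and in 4 of the 8 libraries the NFO held no UMI of it at all.

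Most other tested members of the list fell by less than Pdgfra and to different levels. Cspg5, the proteoglycan neuroglycan C, was at 944, 1065 and 1485 CPM in OPC and at 8.93, 19.9 and 91.8 CPM in NFO (log2 fold change -5.81 ± 0.16). Cdo1, which breaks down cysteine, changed by -5.21 ± 0.17, and Cspg4, the NG2 proteoglycan used as a progenitor marker, by -3.57 ± 0.20 on the log2 scale. For none of these did the ranges of the types overlap. Ptprz1, a receptor phosphatase that carries chondroitin sulfate, kept 184 to 556 CPM in NFO from 2176 to 4724 CPM in OPC (-2.91 ± 0.08), and Serpine2, a secreted protease inhibitor, kept 412 to 794 CPM from 2774 to 3773 CPM (-2.37 ± 0.08). Lhfpl3, another progenitor marker, kept 109 to 347 CPM from 623 to 1289 CPM (-2.01 ± 0.11). Vcan, the large proteoglycan versican, was lower in NFO in all 8 libraries but overlapped, at 376 to 1087 CPM in OPC and 191 to 652 CPM in NFO (-0.73 ± 0.09). The 2 members that were higher in NFO were Gjc3 (1.51 ± 0.09), a connexin of oligodendrocytes, and Sema5a (1.43 ± 0.15), a semaphorin. Erbb4, a neuregulin receptor, was not called (-0.32 ± 0.26), nor was Traf4.

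Several genes were all but absent from NFO. Among the 10 largest falls, Fam19a4 had 285 UMIs in OPC and none in NFO, at least 28.1-fold higher in OPC when the floor is 3 counts over the 8 libraries. Adm, the peptide adrenomedullin, had 435 UMIs in OPC and 1 in NFO, a ratio of levels of 129 with a counting interval of 23.0 to 5089. Pnlip and Spry1, the latter an inhibitor of growth factor signaling, had 2 NFO UMIs each, with ratios of 71.2 (19.6 to 590) and 48.6 (13.4 to 403). Rasl11a and Slc7a3 had 1 NFO UMI each, and the counting intervals, which are 95% and cover counting error only, began at 16.5 and 14.6. Chl1, a cell adhesion molecule, changed by -6.08 ± 0.32 on the log2 scale.

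The mirror image of Pdgfra was Enpp6. Enpp6 (chr8:46986887-47096762, plus strand, GRCm38), a choline phosphodiesterase that marks premyelinating cells, was at 0, 0.634 and 1.5 CPM in OPC and at 593, 1099 and 1794 CPM in NFO. OPC held 4 UMIs of it in all and NFO 1802, and the log2 fold change of 10.05 ± 0.17 was the largest of any gene called. In every library the NFO sum was above 500 CPM and the OPC sum below 2 CPM. The 250 bases before the RefSeq starts of both genes are printed here because they are the 2 poles of the comparison, and that of Hmgcs1 because it led the cholesterol genes described below. The RefSeq start of Pdgfra lies upstream of the start given above, which is that of the gene annotation. Sequences are RefSeq, GRCm38.p6, plus strand, 5′ to 3′, and capitals mark matches on either strand to 4 motifs: the SOX core ACAAAG, its second form ACAATG, the E-box CAGCTG and the core CACCCCAC of a sterol regulatory element.
Enpp6, chr8:46986637-46986886: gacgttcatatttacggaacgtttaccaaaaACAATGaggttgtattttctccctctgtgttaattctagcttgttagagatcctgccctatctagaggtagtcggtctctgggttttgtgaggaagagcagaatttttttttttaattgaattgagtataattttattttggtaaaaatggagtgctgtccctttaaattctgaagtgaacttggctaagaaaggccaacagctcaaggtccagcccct
Pdgfra, chr5:75152001-75152250: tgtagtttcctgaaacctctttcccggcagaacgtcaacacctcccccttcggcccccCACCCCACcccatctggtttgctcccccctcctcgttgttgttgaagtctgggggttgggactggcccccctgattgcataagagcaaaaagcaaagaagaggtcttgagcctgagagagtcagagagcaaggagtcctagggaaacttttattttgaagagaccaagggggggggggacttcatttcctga
Hmgcs1, chr13:119690101-119690350: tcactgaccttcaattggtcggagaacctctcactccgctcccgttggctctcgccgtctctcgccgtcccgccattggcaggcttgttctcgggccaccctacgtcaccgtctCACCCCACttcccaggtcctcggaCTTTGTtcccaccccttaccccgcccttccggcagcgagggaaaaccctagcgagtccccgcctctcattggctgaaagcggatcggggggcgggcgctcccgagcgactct
Enpp6 held the second SOX form 219 bases before its start, Pdgfra the sterol core 192 bases before, and Hmgcs1 the sterol core 136 bases and the SOX core, on the minus strand, 112 bases before. Over all 32817 promoters of 300 bases, which add 50 bases after the start, ACAAAG was in 18.7%, ACAATG in 12.6%, CAGCTG in 16.3% and CACCCCAC in 2.87%. Of 17 promoters of 9 of the 10 genes with the largest rise 6 held ACAAAG, 2 ACAATG, 3 CAGCTG and 0 CACCCCAC. Of 6 promoters of 6 of the 10 genes with the largest fall 1 held ACAAAG, 0 ACAATG, 1 CAGCTG and 1 CACCCCAC. Several of the 17 are starts of the same gene, and the counts are too small to set either group apart from all promoters. These matches are letters in a window, and no statement on binding follows from them.

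Genes of the newly formed stage rose almost without exception among those that could be tested. Of 39 on the list 30 were tested, 28 were higher in NFO and 0 in OPC, beside 15.0% and 18.2% of all genes. The median log2 fold change was 3.23. The list holds markers by which such cells are named, so these counts describe the labels and are no test. Bmp4, a secreted ligand of the bone morphogenetic protein family, was at 10.5, 17.3 and 25.4 CPM in OPC and 597, 725 and 932 CPM in NFO (5.40 ± 0.12). Fyn, the Src-family kinase that links axon contact to the oligodendrocyte cytoskeleton, was at 83.3, 100.2 and 158 CPM in OPC and 1990, 2478 and 3456 CPM in NFO (4.69 ± 0.08). In both genes the lowest NFO library was more than 10 times the highest OPC library. The long noncoding RNA 9630013A20Rik went from 8 UMIs in OPC to 2255 in NFO (9.65 ± 0.17). Sirt2, a tubulin deacetylase of the myelin sheath, rose by 3.35 ± 0.07 and Bcas1, a marker of early myelinating cells, by 2.87 ± 0.09. Gpr17, a receptor that times the start of myelination, was already at 180, 255 and 374 CPM in OPC and reached 827, 1089 and 1290 CPM in NFO (2.05 ± 0.09). Tnr, the matrix protein tenascin-R, overlapped between the types although it was higher in NFO in all 8 libraries (1.00 ± 0.07). Neu4, a sialidase, and Ddr1, a collagen receptor, were the tested members not called. Neu4 stood at 527, 650 and 728 CPM in OPC and 614, 845 and 1112 CPM in NFO, a log2 difference of 0.48 ± 0.08 that is below the fold required.

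Transcription factors moved both ways. Of 49 listed 29 were tested, 11 were higher in NFO and 12 in OPC, beside 15.0% and 18.2% of all genes. Their median was 0.05. Id2, an inhibitor of basic helix-loop-helix factors that holds progenitors back from differentiation, was at 166, 281 and 326 CPM in OPC and 0, 10.2 and 34.1 CPM in NFO (-3.88 ± 0.21), and its relative Id3 changed by -1.67 ± 0.19. Sox11 and Sox5, also linked with the progenitor state, changed by -1.59 ± 0.19 and -1.41 ± 0.20. On the side of NFO stood Myrf, the regulator that switches on myelin genes, at 5.07, 11.6 and 19.7 CPM in OPC and 101, 116 and 142 CPM in NFO (3.37 ± 0.22). Tcf7l2, a Wnt effector needed for differentiation, was at 43.4, 57.3 and 72.3 CPM in OPC and 324, 454 and 656 CPM in NFO (3.09 ± 0.11). Mycl (2.95 ± 0.19), Zfp365 (2.91 ± 0.19), Zeb2 (1.68 ± 0.12), Sox4 (1.57 ± 0.12) and Nkx2-2 (1.35 ± 0.14) rose as well. Of the factors that define the whole lineage, Sox10 was at 126 to 413 CPM in OPC and 140 to 665 CPM in NFO, with a difference of 0.05 ± 0.10, and Olig1 and Olig2 fell by 1.15 and 0.62 on the log2 scale. The call of Olig2 was lost when PFC WT replicate 1, PFC WT replicate 2, Striatum WT replicate 1 or Striatum Setd1a+/- replicate 1 was left out (-0.56, -0.53, -0.56 and -0.56). Sox2 (0.47 ± 0.14) and Sox6 (0.35 ± 0.10) were not called.

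Most tested myelin genes were higher in NFO than in OPC, and they stood at different distances from the mature level. Of 46 listed 27 were tested, 22 were higher in NFO and 2 in OPC, beside 15.0% and 18.2% of all genes. Their median was 2.21. Mbp, a main protein of compact myelin, was at 92.5, 155 and 206 CPM in OPC and 5175, 11021 and 12893 CPM in NFO (6.10 ± 0.09). Cldn11, the tight junction protein of the sheath, rose by 7.23 ± 0.12, and Mag, an adhesion molecule of the inner myelin membrane, by 6.50 ± 0.14. In mature oligodendrocytes of the same libraries Mbp ran from 10093 to 16652 CPM, so the range overlapped with NFO. Genes of the finished sheath were further from the mature level: Mog was at 106, 229 and 270 CPM in NFO and 1819, 2284 and 2885 CPM in mature cells (NFO minus mature, -4.08 ± 0.15 on the log2 scale), and Mobp at 23.8, 158 and 631 CPM and 2730, 3505 and 6305 CPM (-5.21 ± 0.24). Trf, the iron carrier transferrin, differed most among these, by -6.09 ± 0.22 between NFO and mature cells. The 2 listed genes that were lower in NFO than in OPC were Gsn, the actin-severing protein gelsolin (-1.16 ± 0.14), and Gpm6b, a neural membrane glycoprotein (-0.82 ± 0.08).

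Genes of cholesterol synthesis moved by smaller steps than myelin proteins. Of 24 listed 15 were tested, 10 were higher in NFO and 0 in OPC, beside 15.0% and 18.2% of all genes. Their median was 0.70. Hmgcs1, an early enzyme of the pathway, was at 27.9, 59.6 and 93.7 CPM in OPC and 45.9, 162 and 242 CPM in NFO (1.62 ± 0.18). Msmo1, a demethylase late in the pathway, was at 41.8, 68.5 and 115 CPM in OPC and 152, 167 and 233 CPM in NFO (1.35 ± 0.14) and was the 1 gene of the list whose ranges did not overlap. Sqle, squalene epoxidase, rose by 0.69 ± 0.19. Srebf2, the factor that switches the pathway on, was at -0.27 ± 0.28 and was not called. The call of Sqle was lost with scaling by library size alone (0.57), without the 10% of cells with the most UMIs (0.43) and without PFC WT replicate 1 (0.56).

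Cell cycle genes were mostly too low to test in either type. Of 36 listed 8 were tested, 2 were higher in NFO and 2 in OPC, counts too small to set the list apart from the 15.0% and 18.2% of all genes. Ccnd1, cyclin D1, which carries growth factor signals into the cycle, was at 419, 534 and 679 CPM in OPC and 0, 12.7 and 45.9 CPM in NFO (-5.24 ± 0.19), and Ccnd2 fell by 3.30 on the log2 scale. Cdk4, the kinase partner of both cyclins, was higher in NFO (0.81 ± 0.09), as was the tubulin Tubb5 (0.76 ± 0.08). After thinning every cell to 1000 UMIs, Top2a was seen in 15 of 2778 OPC and 0 of 460 NFO, which allows a share of up to 0.652% of cells with a UMI and sets no limit on cells that express it, and Mki67 in 4 OPC (0.144%) and 1 NFO (0.217%). Mature oligodendrocytes had Top2a in 0.0248% and Mki67 in 0.421% of cells, so the Mki67 shares of OPC and NFO were no higher than in mature cells.

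Most tested genes of glutamate and GABA signaling were lower in NFO, and matrix genes went both ways. Of 41 genes of glutamate and GABA signaling 12 were tested. Of these 10 were higher in OPC and 0 in NFO, beside 18.2% and 15.0% of all genes, with a median of -1.54. Gabrb1, a GABA-A receptor subunit, changed by -2.68 ± 0.34, Cacng4, an AMPA receptor partner, by -1.98 ± 0.13, the metabotropic receptor Grm5 by -1.84 ± 0.23 and the NMDA subunit Grin3a by -1.77 ± 0.24. The AMPA subunits went apart: Gria3 changed by -1.64 ± 0.16, while Gria2 was at 475, 653 and 866 CPM in OPC and 459, 644 and 780 CPM in NFO (0.02 ± 0.08). Of 39 channel genes 11 were tested, 7 were higher in OPC and 2 in NFO, beside 18.2% and 15.0% of all genes. On the side of NFO these are too few to set the list apart from all genes. Kcnip3, a calcium-binding partner of potassium channels, was at 274, 353 and 401 CPM in OPC and 7.80, 17.9 and 28.4 CPM in NFO (-4.27 ± 0.17), and the potassium channel Kcnd2 that such partners bind changed by -2.67 ± 0.26. The potassium channels Kcna1 (0.93 ± 0.21) and Kcna2 (0.97 ± 0.22) were the 2 that were higher in NFO, and both overlapped. Of 40 matrix genes 21 were tested, 12 were higher in OPC and 6 in NFO, beside 18.2% and 15.0% of all genes. Their median was -1.60. Sdc3, a heparan sulfate proteoglycan, changed by -4.26 ± 0.26 and Ncan, neurocan, by -2.47 ± 0.17, while Bcan, brevican, was at 338 to 576 CPM in OPC and 335 to 574 CPM in NFO (0.04 ± 0.09). Col9a3 led the 6 that rose (2.15 ± 0.10), the others being Tnr, Sparc, Timp4, Adamts4 and Ncam1.

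Signaling and cytoskeletal genes moved both ways. Of 48 genes of Notch, Wnt and BMP signaling 11 were tested, 3 were higher in NFO and 4 in OPC, beside 15.0% and 18.2% of all genes. The ligand Bmp4 and the effectors Tcf7l2 and Ctnnb1 (0.70 ± 0.19) were higher in NFO, while the receptor Notch1 (-1.35 ± 0.23) and the targets Hey1 (-0.65 ± 0.24), Id2 and Id3 were higher in OPC. The call of Ctnnb1 was lost with scaling by library size alone, without the 10% of cells with the most UMIs and with DESeq2 (0.58 each). Ctnnb1 was higher in NFO in 5 of 8 libraries and lower in 3 of the 4 striatal ones (0.98 ± 0.21 in PFC and 0.19 ± 0.33 in striatum, the second not called). The call of Hey1 was lost without PFC WT replicate 2 (-0.59), Striatum WT replicate 1 (-0.46) or Striatum Setd1a+/- replicate 1 (-0.63). Of 58 cytoskeleton genes 44 were tested, 24 were higher in NFO and 7 in OPC, beside 15.0% and 18.2% of all genes. Their median was 0.63. The tubulins Tubb4a (4.10 ± 0.09) and Tuba1a (2.19 ± 0.05) and the microtubule-associated Map1b (3.55 ± 0.10) and Mapt (1.64 ± 0.10) rose with ranges that did not overlap. The microtubule-destabilizing stathmins went the other way, with Stmn3 at -2.79 ± 0.15, Stmn4 at -1.48 ± 0.20 and Stmn1 at -0.94 ± 0.15. Of 12 genes of H3K4 methylation 5 were tested, and Cxxc1, a subunit of the Setd1 complexes, was the 1 called (-0.85 ± 0.24, higher in OPC), beside 18.2% of all genes tested.

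Mature oligodendrocytes of the same libraries (4039 cells) were set beside both types to find genes that peak or dip in NFO. Of 7340 genes tested in the 3 types, 371 (5.05%) were higher in NFO than in both others and 420 (5.72%) were lower than in both, a split that became 482 and 246 with scaling by library size alone. Leaving out any 1 library gave 364 to 435 higher and 286 to 370 lower, with more genes higher than lower each time. Which of the 2 counts is larger thus depended on the setting. Without cells holding markers of other cell types 169 of 2841 genes tested were higher than in both. That removal took out 63.0% to 81.8% of OPC and 27.3% to 52.4% of NFO a library, and fewer genes were tested. The 371 included the endothelial markers Ly6c1 and Ly6a, which were higher in NFO than in OPC in 5 and 6 of 8 libraries, and the astrocyte marker Aqp4, in 6 of 8. Their part in the count was not tested. In the newly formed list 29 of 34 tested members were higher than in both, beside the 5.05% of all genes. The list holds markers of the stage, so this count too describes the labels. Fyn, at 19.7 to 44.1 CPM in mature cells, and Bmp4, at 0 to 3.82 CPM, fell there below their OPC ranges (NFO minus mature, 6.15 ± 0.11 and 9.35 ± 0.21). Neu4 and Gpr17, which OPC already held, were both near 0 in mature cells (7.40 ± 0.22 and 6.33 ± 0.21), and Enpp6 kept 114 to 278 CPM there (2.14 ± 0.16). Among the transcription factors Mycl (8.14 ± 0.34), Sox4 (4.85 ± 0.22) and Tcf7l2 (3.66 ± 0.12) peaked in NFO, while Myrf stayed on, at 101 to 146 CPM in mature cells.

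The genes with the clearest peak were not all on the list of the newly formed stage. By the rule of the largest smaller fold, 10 genes led: Itgb7, Brca1, 9630013A20Rik, Bmp4, Fyn, Pycr1, Cplx3, Frmd4a, Matn1 and Pdcd4. Brca1, which acts in DNA repair, was at 5.07, 7.51 and 16.1 CPM in OPC, 227, 338 and 449 CPM in NFO and 0, 0.713 and 6.29 CPM in mature cells. The difference was 5.46 ± 0.17 from OPC and 7.70 ± 0.22 from mature cells on the log2 scale, and the NFO range stood clear of both others. Matn1, a cartilage matrix protein, was at 170 to 417 CPM in NFO and at 1.23 CPM or less in mature cells (8.94 ± 0.27). Pycr1, which makes proline, and Cplx3, a complexin of neurons, were at 56.8 to 163 CPM and 38.2 to 146 CPM in NFO, with medians of 4.73 CPM or less in both other types. Pdcd4, an inhibitor of translation, had 40.4 to 111 CPM in OPC, 750 to 1721 CPM in NFO and 17.2 to 37.8 CPM in mature cells.

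Other genes dipped in NFO. Of 53 cytoskeleton genes tested in the 3 types, 8 were lower in NFO than in both others and 8, with Fyn, Tuba1a and Map1b among them, were higher than in both, beside 5.72% and 5.05% of all genes. Gsn was at 142, 191 and 265 CPM in OPC, 65.6, 88.8 and 127 CPM in NFO and 981, 1040 and 1827 CPM in mature cells, so that NFO were below both (NFO minus mature, -4.32 ± 0.13), by less from OPC (-1.24 ± 0.15 in the fit of 3 types) than from mature cells. Stmn1 and Stmn4 were at 2702 to 3919 CPM and 2757 to 4198 CPM in mature cells against medians of 104 and 102 CPM in NFO. Gpm6b, Tubb3 and the GABA-B receptor subunit Gabbr1 were also lower in NFO than in both others. Stmn3 was not among them, since its mature level, 28.0 to 101 CPM, did not differ detectably from NFO (-0.06 ± 0.25).

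**Figure D2:**
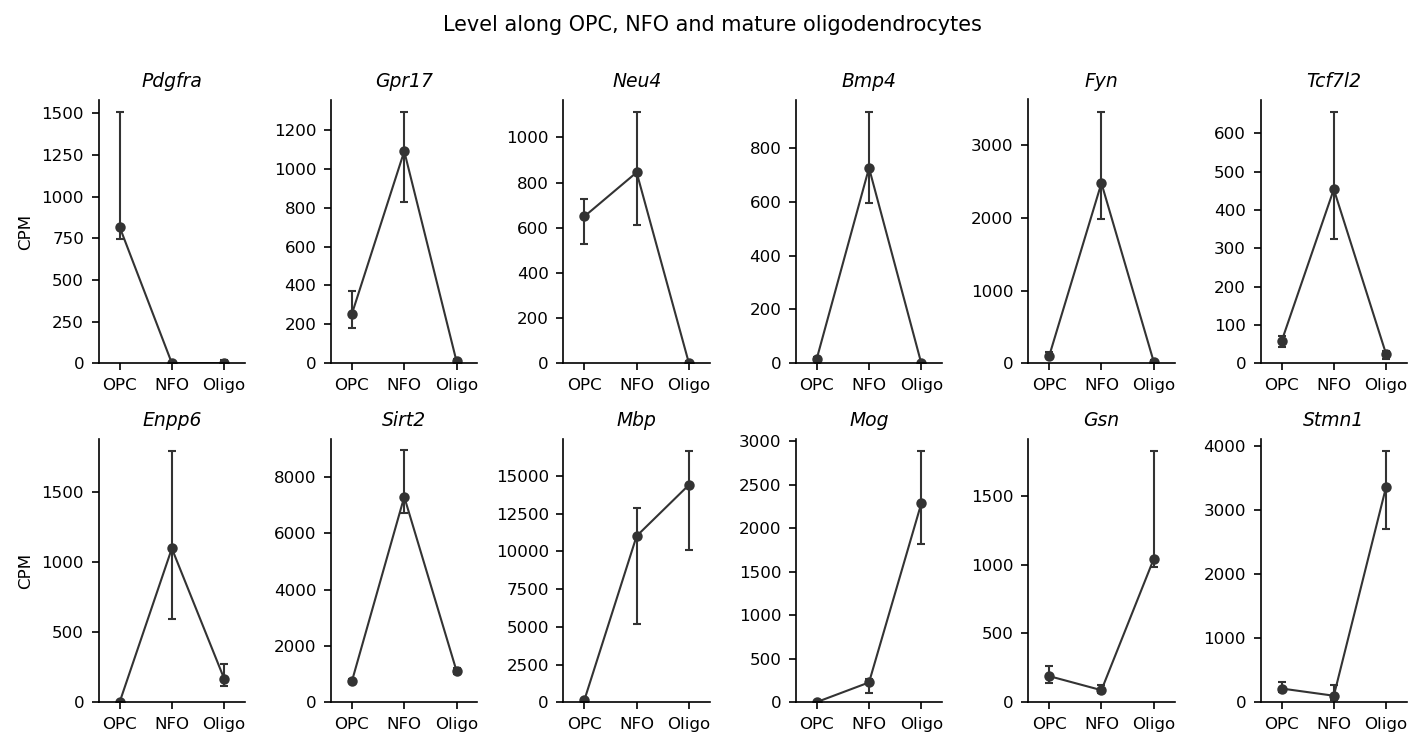
CPM of 12 genes in OPC, NFO and mature oligodendrocytes (Oligo), each on its own linear axis from 0. Points are medians and bars run from the lowest to the highest of 8 libraries. Bmp4, Fyn, Tcf7l2 and Enpp6 peak in NFO, Mog is far higher in mature cells than in NFO, and Gsn and Stmn1 are lowest in NFO.

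Cell by cell, single genes separated the types to different degrees. Shares of cells with a UMI were counted after thinning every cell to 1000 UMIs, since NFO were deeper, and the same shares are given for endothelial cells (3560 cells, median depth 2082.5 to 2756 UMIs per cell before thinning) and mature oligodendrocytes (1888 to 2190.5 UMIs). Cspg4 was in 6.43% of endothelial cells and in 0.0248% of mature cells. The parts of free RNA and of the cells' own expression in the endothelial shares were not tested. Pdgfra was seen in 1574 of 2778 OPC (56.7%) and in 3 of 460 NFO (0.652%), and the second share is below that of endothelial cells (0.787%), with 0.223% in mature cells. Enpp6 was seen in 2 OPC and in 261 NFO (56.7%), and in 16.8% of mature cells. Fyn was in 9.94% of OPC and 88.5% of NFO, with 3.68% in endothelial and 1.98% in mature cells. Bmp4 was in 1.84% of OPC and 46.5% of NFO, with 1.88% in endothelial and 0.0990% in mature cells. Gpr17 was in 23.5% of OPC and 58.7% of NFO, Neu4 in 45.7% and 53.9%, and both in 0.309% of endothelial cells. Among myelin genes Mag was in 33.0% of NFO and 92.7% of mature cells, Mog in 13.9% and 86.9%, and Mobp in 4.35% and 95.8%, against 1.04%, 0.702% and 2.25% of endothelial cells. In OPC the shares of Mag, Mog and Mobp were 0.972%, 0.504% and 2.41%. Over libraries the Mobp share ran from 0 to 18.2% in NFO and from 0 to 3.99% in OPC, so the types overlapped.

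The share of cells with an OPC transcript and a myelin transcript at the same time depended on depth. At 1000 UMIs an OPC transcript (of Pdgfra, Cspg4 or Lhfpl3) was in 83.2% of OPC (median of 8 libraries) and 18.9% of NFO, and a late myelin transcript (of Mog, Mag, Mobp or Opalin) was in 4.04% and 41.7%. Endothelial cells held a late myelin transcript in 3.14% (0.840 to 7.75% over libraries), near the share of OPC (0 to 7.10%). They held an OPC transcript in 7.83%, mostly Cspg4. Over all endothelial cells Cspg4 was in 6.43%, Pdgfra in 0.787% and Lhfpl3 in 0.618%. That share was thus not a measure of free OPC RNA alone, and its parts were not tested. Both kinds of transcript were in 3.82% of OPC (0 to 6.65% over libraries) and 5.29% of NFO (0 to 9.09%). The shares were 0.439% of endothelial cells and 0.406% of mature cells. These 2 types seldom held an OPC transcript (7.83% and 0.406%), so their shares with both had to be low and are no baseline. Most OPC held an OPC transcript, so their share with both lay near their myelin share of 4.04%. Whether NFO held both more often than separate detection of each would give was not tested. The share with both was 9.98% of NFO at 1500 UMIs and 23.9% with all UMIs kept, while in OPC it was 4.72% and 5.88%. The values at 1500 UMIs leave out the shallower 927 OPC and 29 NFO, so the cells changed with the depth. With all UMIs the shares were 1.35% in endothelial and 1.21% in mature cells. Doublets of an OPC and a mature cell would also hold both, as would OPC with free myelin RNA, and the part of either was not tested.

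**Figure D3:**
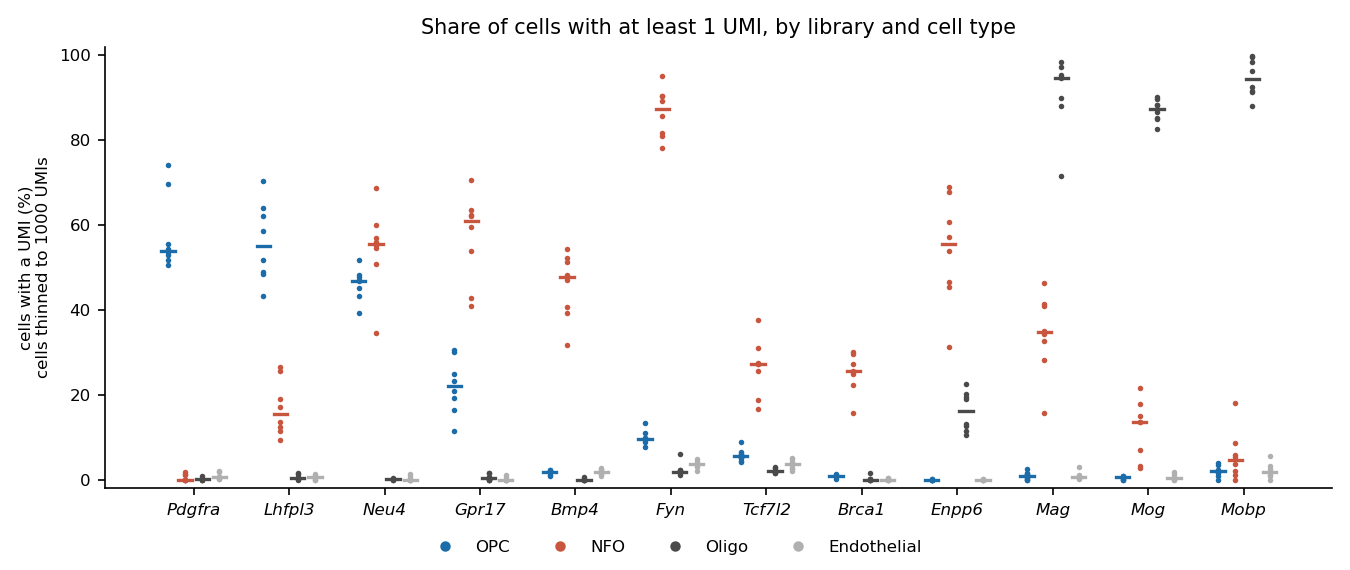
Percent of cells with at least 1 UMI of 12 genes, for OPC, NFO, mature oligodendrocytes (Oligo) and endothelial cells, after thinning to 1000 UMIs a cell. Each point is a library and each bar the median of 8. Pdgfra is near 0 in NFO, Enpp6 near 0 in OPC, and Neu4 and Gpr17 are found in both.

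NFO differed among themselves. The 192 NFO with a late myelin transcript at 1000 UMIs (10 to 45 a library) and the 268 without were compared by medians over libraries, as a description chosen after the values were seen. Besides Mbp and Cldn11, Enpp6 (1509 against 768 CPM) and Tcf7l2 (650 against 143 CPM) were higher in the cells with a myelin transcript in all 8 libraries, and Brca1 (462 against 239 CPM) in 7. Neu4 (633 against 1084 CPM) and Fyn (2339 against 2815 CPM) were lower in all 8, and Gpr17 (796 against 1415 CPM) and Lhfpl3 (125 against 230 CPM) in 7. Bmp4 was higher in 4 libraries and lower in 4 (782 against 809 CPM). The cells with a myelin transcript had more UMIs before thinning, with library medians of 2372 to 4100 against 1616 to 3269, and the part of depth in these differences was not tested. OPC split by Gpr17 (654 with and 2124 without) held Pdgfra alike, at 851 and 807 CPM, higher in 4 of 8 libraries, and the 2 groups held 1 UMI of Enpp6 each.

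The step from OPC to NFO was largely shared by the tissues. In PFC 814 of 5242 genes (15.5%) were higher in NFO and 937 (17.9%) in OPC, 33.4% in all. In striatum 429 of 3145 genes (13.6%) were higher in NFO and 513 (16.3%) in OPC, 30.0% in all, with fewer NFO and fewer genes tested. Without Striatum Setd1a+/- replicate 2, the library with the fewest NFO, 674 and 763 of 5916 striatal genes were called. Among 3118 genes tested in both, 368 were higher in NFO in both, which is 71.2% of the PFC calls and 87.0% of the striatal calls, and 400 were higher in OPC in both, 76.0% and 79.4%. No gene was called in opposite directions. Pdgfra changed by -8.15 in PFC and -8.34 in striatum on the log2 scale, Fyn by 4.73 and 4.60, and Mbp by 6.07 and 6.11.

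A test of the tissue difference itself called 6 of 4563 genes (0.131%), all with a change less negative or more positive in striatum: Stmn4, Ptgds, Meg3, Gatm, Fth1 and Meis2. Ptgds, prostaglandin D2 synthase of mature oligodendrocytes and meninges, rose by 1.89 ± 0.12 in PFC and 3.12 ± 0.14 in striatum (difference 1.21 ± 0.21, adjusted p = 0.000807). Gatm, which makes the creatine precursor, rose by 0.68 and 1.27 (difference 0.62 ± 0.13, adjusted p = 0.0128), and Fth1, ferritin heavy chain, by 0.98 in striatum with 0.18 in PFC (0.78 ± 0.18, adjusted p = 0.0341). Stmn4 was at 32.7 to 117 CPM in PFC NFO and 87.4 to 482 CPM in striatal NFO (difference 1.91 ± 0.31, adjusted p = 0.000348). It is a gene of mature cells too, and the 9 mature markers summed to 800 to 2143 CPM in PFC NFO and 1206 to 2625 CPM in striatal NFO. Car2, carbonic anhydrase of mature oligodendrocytes, was at 0 to 71.4 CPM in PFC NFO and 49.2 to 665 CPM in striatal NFO, highest with Stmn4 and Apod (275 CPM) in Setd1a+/- replicate 2. The part of mature cells in this difference was not tested. The noncoding RNA Meg3 differed by 1.53 ± 0.27 (adjusted p = 0.000855) and the homeobox gene Meis2, which striatal neurons also use, by 1.90 ± 0.44 (adjusted p = 0.0425). In the other direction no gene was called, and Aldoc and Hspa5 were among the 3 with the smallest p (-1.65 ± 0.41 and -0.63 ± 0.16).

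Few cells carried some of these sums. In striatal NFO the 2 richest cells held 76.3% of the 240 Meg3 UMIs in WT replicate 1 and 76.0% of 154 in WT replicate 2, and the richest cell of each striatal library held 23.7% to 42.1% of the Fth1 UMIs. The summed neuron markers were 426 and 783 CPM in NFO of the striatal WT libraries and 98.3 to 332 CPM in the other 6, and Ppp1r1b, a marker of striatal projection neurons, had 12 and 21 UMIs in those 2 libraries, 1 in the other striatal NFO and 0 in PFC NFO. Without cells holding 3 or more UMIs of neuron markers the difference of Meg3 was 0.52 in place of 1.53 and that of Meis2 0.96 in place of 1.90, and neither was called. Without cells holding 2 or more UMIs of microglia, vessel or red blood cell markers Ptgds differed by 0.13 in place of 1.21. After removal of the cells with neuron markers 3 genes were called in place of 6, without the Striatum WT replicate 1 library 0 (226 at an unadjusted p under 0.05), and with DESeq2 0 (80 at an unadjusted p under 0.05).

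Few differences by genotype were called in this step. That is no measure of a small effect, since 4 Setd1a+/- and 4 WT libraries were compared and the smallest held 22 NFO. The test of the genotype difference called 3 of 4563 genes (0.0657%), all with a lower change in Setd1a+/-: Hbb-bs (-5.91 ± 0.42, adjusted p = 6.1e-17), Meg3 (-1.46 ± 0.28, adjusted p = 0.007) and Arpp21 (-1.23 ± 0.26, adjusted p = 0.0275). Hbb-bs is a beta globin of red blood cells, and 1562 of its 1590 UMIs in NFO of PFC WT replicate 1 were in 1 of 84 cells and 716 of 720 in Striatum WT replicate 1 in 1 of 58 cells. Arpp21, a gene of striatal and cortical neurons, was at 381 and 349 CPM in NFO of the 2 striatal WT libraries (replicates 1 and 2) and at 68.8 to 241 CPM in the others, and the 2 richest cells held 49.3% and 54.5% of its UMIs in those libraries. Meg3 was highest in the same 2 libraries, at 1364 and 1630 CPM, with 574 CPM or less elsewhere. Without cells holding neuron markers the genotype difference of Meg3 was 0.03, without Striatum Setd1a+/- replicate 1 it was -0.45 and not called, and without the 10% of cells with the most UMIs that of Hbb-bs was -0.07. Ptgds, Sf1 and Vps37b had the smallest p in the other direction and were not called (0.84 ± 0.22, 1.52 ± 0.45 and 1.27 ± 0.40). Without cells holding 2 or more UMIs of microglia, vessel or red blood cell markers edgeR's test called 0 genes (160 at an unadjusted p under 0.05), and DESeq2 called 0 (58 at an unadjusted p under 0.05).

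NFO made up 14.2% to 22.5% of OPC plus NFO in the 4 PFC libraries and 7.57% to 16.2% in the 4 striatal libraries. The means were 17.9 ± 4.02% and 11.2 ± 3.59% (SD, n = 4 each), a difference of -6.63 percentage points (two-sided exact permutation test, p = 0.0857, smallest possible 0.0286), and the ranges overlapped through 1 striatal library. Setd1a+/- libraries had 16.0 ± 4.96% and WT libraries 13.1 ± 5.29%, a difference of 2.92 percentage points within tissues (two-sided exact permutation test, p = 0.278, smallest possible 0.0556). The tissue difference did not pass 0.05, and the genotype test could not have passed it at any shares. Dissociation and the droplet run can set such shares, and their part was not tested.

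**Figure D4:**
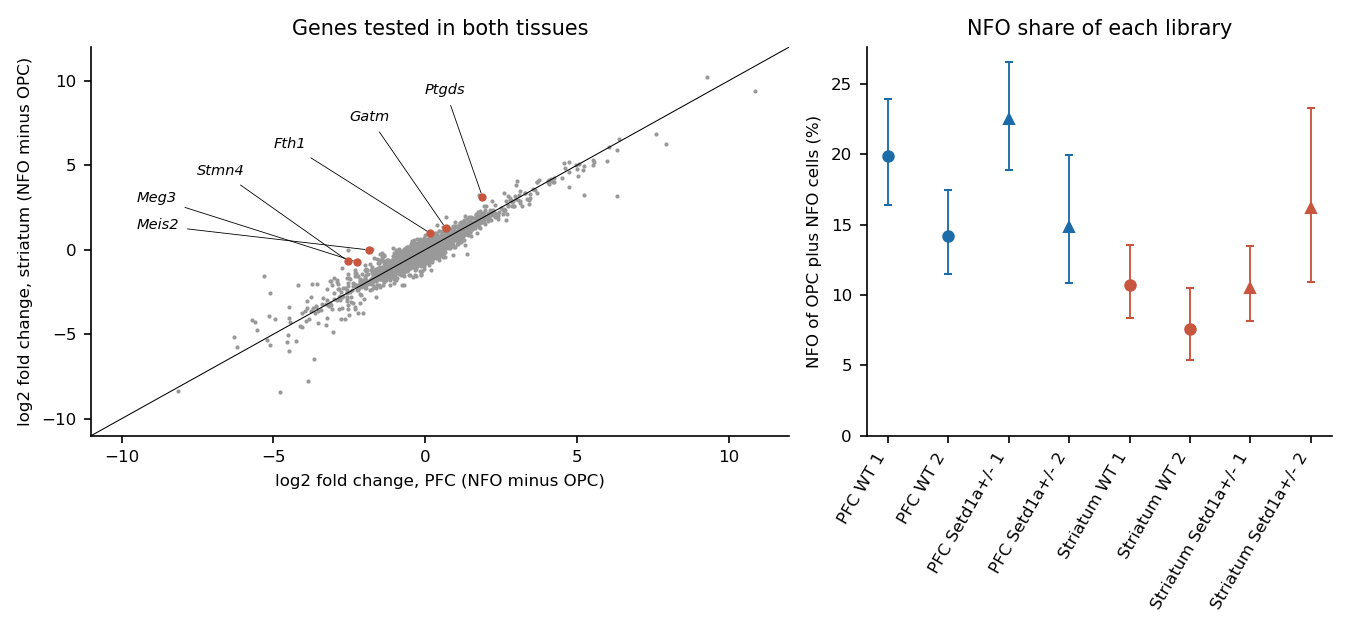
Left, log2 fold change (NFO minus OPC) in PFC and striatum of 3118 genes tested in both, with the line of equality and the 6 genes called for a tissue difference named. Right, NFO as a percent of OPC plus NFO cells of each library with 95% Wilson intervals, which cover counting error only. Most genes lie near the line, and the striatal shares run from 7.57% to 16.2% against 14.2% to 22.5% in PFC.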

How the data were processed

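The deposited files are UMI counts per gene and droplet for each library, made by the authors from 10x Chromium 3′ reads; the submitters' processing notes name Cell Ranger 3.0.2, Seurat 3.2.0 and mm10. No normalization had been applied to these counts. The deposited cell tables hold the authors' cell types, which were joined to the counts by barcode; all annotated OPC and NFO had 800 or more genes and under 10% mitochondrial UMIs. No doublet caller was run, and the methods name none. Papain dissociation and a density gradient preceded capture. The strand setting of the counting is not given in the sources used here, so overlapping genes are uncertain.

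UMIs were summed per library and type (10 or more cells a side) and tested with edgeR 4.0.16 (R 4.3.3; TMM, filterByExpr with a minimum count of 10, glmQLFit and glmQLFTest, Benjamini-Hochberg over all genes tested), with the library as a block. Tissue and genotype differences were interaction terms, and a fit of OPC, NFO and mature oligodendrocytes gave genes higher or lower in NFO than in both. A call is an adjusted p under 0.05 and a fold above 1.5, after the methods. OPC and NFO of 1 library deviated together (correlation over 1060 genes 0.60 to 0.84 in PFC and 0.29 to 0.35 in striatum, in each library highest with its own). By the methods, a biological replicate is 1 WT and 1 Setd1a+/- library; same-numbered libraries gave a correlation of deviations of -0.11 in PFC and 0.09 in striatum for NFO minus OPC. Replicates are libraries of pooled mice, 2 per group, so p-values measure the spread between such libraries. NFO shares were tested by exact permutation of libraries (within tissue for genotype), and shares of cells after thinning to 1000 UMIs with seed 1. The scripts were tested on simulated counts.

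Named genes are the members of the lists; the 10 largest folds in each direction that were called, had the same direction in every library and a mean of 50 CPM or more in the higher type; the 10 smallest p in each direction of each interaction if called, otherwise 3 given as values; and the 10 largest smaller folds among genes higher in NFO than in both. The cells, lists and motifs were chosen with earlier results of these data known. Gene positions are from the GRCm38 annotation, and promoters are from RefSeq. Alternatives were RLE scaling, library size alone, no filter, DESeq2 1.42.0, no block, a fold above 2, thinned cells, and leaving out libraries, the 10% deepest cells, mitochondrial and ribosomal genes or cells with markers of other types. Some genes that the rule names are not reported here.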

Additional observations from a re-analysis of the deposited data

Results flagged for a closer look

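A test of the difference between the tissues or the genotypes in the step from OPC to NFO called 9 differences in 8 genes. Between striatum and PFC the log2 change differed by 1.91 for Stmn4, 1.90 for Meis2, 1.53 for Meg3, 1.21 for Ptgds, 0.78 for Fth1 and 0.62 for Gatm. Between Setd1a+/- and WT it differed by -5.91 for Hbb-bs, -1.46 for Meg3 and -1.23 for Arpp21. One cell held 98.2% of the Hbb-bs UMIs in NFO of PFC WT replicate 1 and 1 cell 99.4% of those of Striatum WT replicate 1. The part of such cells in these differences was not tested beyond the removals given with the results.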

How the results depend on the processing

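No named gene that was called between OPC and NFO over 8 libraries changed direction under an alternative; members not called, such as Bcan, Ddr1 and Sox10, took both signs. OPC against NFO gave 685 genes higher in NFO and 831 in OPC over 8 libraries, 814 and 937 in PFC and 429 and 513 in striatum; these became 1095 and 2062 over 8 libraries, 1573 higher in OPC in PFC and 1031 in striatum with no filter on low counts, where more genes are tested. Thinned to 1000 UMIs the counts were 235 and 330, 354 and 452, and 206 and 232. Without cells holding markers of other cell types they were 270 and 301, 346 and 370, and 223 and 229. Fewer genes were tested in both settings, 1964, 2833 and 1599 when thinned and 1954, 2601 and 1636 without those cells. With a fold above 2 there were 354 and 489 over 8 libraries, and 466 in PFC and 265 in striatum were higher in NFO. Leaving out 1 library gave 538 to 765 and 669 to 945 over 8 libraries, 670 to 819 and 769 to 1018 in PFC, and 382 to 674 and 381 to 763 in striatum, the last highest without Striatum Setd1a+/- replicate 2, the library with the fewest NFO. With no replicate block (OPC and NFO not paired) 658 and 799 were called over 8 libraries, and no count moved by over 1.5 times. Without cells holding markers of other types 169 of 2841 genes tested were higher in NFO than in both others, in place of 371 of 7340. When a library was left out, 364 to 435 were higher than in both and 286 to 370 lower, the second below the 420 of all 8 libraries.

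The 6 tissue differences became 11 with no filter, 3 without the deepest 10% of cells, 0 without cells holding other types' markers (96 at an unadjusted p under 0.05), 0 thinned (99) and 0 with DESeq2 (80), and 0 to 13 when a library was left out (0 without Striatum WT replicate 1, 3 without PFC WT replicate 2 and 13 without Striatum Setd1a+/- replicate 1). The 3 genotype differences became 7 with no filter, 0 without the deepest cells (156 at an unadjusted p under 0.05), 0 without other types' markers (81), 1 thinned and 0 with DESeq2 (58), and 1 to 4 when a library was left out (1 without Striatum WT replicate 1). With the replicate block 3 were called. In the tissue and the genotype test 1954 genes were tested without other types' markers and 1964 thinned, in place of 4563. Genes could thus also leave the test in those settings. Among settings chosen after seeing the data, crossing the PFC numbers in the block gave 5, removing cells with neuron markers 3 tissue and 1 genotype difference, and removing cells with microglia, vessel or red blood cell markers 0 genotype differences. The genotype difference of Meg3 turned to 0.14 without other types' markers and 0.0277 without neuron markers; the cause was not tested. Fth1, not called over 8 libraries, was called at 0.59 to 0.65 when Striatum Setd1a+/- replicate 1 or any PFC library was left out, and its tissue difference was 0.47 without Striatum Setd1a+/- replicate 2. Arpp21 lost its genotype call without PFC WT replicate 1, Striatum WT replicate 1 or either striatal Setd1a+/- library. The NFO share differed by -8.28 to -5.08 points between tissues and by 1.00 to 4.84 between genotypes when a library was left out. Co-detection was 5.88% of OPC with all UMIs, and 9.98% and 23.9% of NFO at 1500 and with all UMIs. A replicate block was not run for tissue, since the sources do not say whether a number means the same mice in both tissues. DESeq2 was not run for the 3 stages.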

Other observations

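Of 4 astrocyte markers tested in the 3 types, Slc1a3, Slc1a2 and Aldoc were lower in NFO than in OPC and mature cells, and Aqp4, a water channel, was higher than in both (0.97 ± 0.36 from OPC and 3.49 ± 0.46 from mature cells). The 7 astrocyte markers summed to 14095 to 19475 CPM in astrocytes of the same libraries. Slc1a3 and Slc1a2, the glutamate transporters of astrocytes, changed by -4.07 ± 0.19 and -2.82 ± 0.16 on the log2 scale (NFO minus OPC), and Aldoc, an astrocyte aldolase, by -2.59 ± 0.18. Slc1a3 was at 173, 315 and 418 CPM in the lowest, median and highest OPC library, at 3.90, 19.5 and 28.4 CPM in NFO and at 66.3, 82.3 and 89.3 CPM in mature oligodendrocytes, so that NFO were the lowest of the 3 types. Aqp4 had a median of 12.1 CPM in OPC and 26.1 CPM in NFO, higher in NFO in 6 of 8 libraries. The part of free astrocyte RNA in these levels was not tested.

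The S100b gene, a marker shared by astrocytes and oligodendrocytes, went the other way, from 943 to 1472 CPM in OPC to 1833 to 2803 CPM in NFO, without overlap, and 283 to 1643 CPM in mature cells. Cd9, a tetraspanin of premyelinating cells, was at 1559 to 2306 CPM in OPC, 6516 to 9485 CPM in NFO and 705 to 1982 CPM in mature cells, and NFO exceeded mature cells by 2.13 ± 0.11 on the log2 scale.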
